A study of Rattus norvegicus with 10 samples.

Results

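Potassium channel genes were taken as all probe sets annotated with exactly 1 gene symbol beginning with Kcn, which gave 126 of 31042 probe sets and 75 of 14217 named genes in the rat hippocampus. The hippocampus was compared on Affymetrix rat genome arrays between the C-group (solid chow, 5 rats) and the P-group (powder chow, 5 rats). All were male Wistar rats, 4 weeks old by the labels, and kept on their diet for 8 days. Rats of both groups had first taken powdered feed for acclimatization. The question was how gene expression differs with mastication stimuli after weaning, and the rats are called C1 to C5 and P1 to P5 by their labels. Hippocampal regions were dissected by hand and their cells were not separated, so fewer cells of a type and less RNA per cell cannot be told apart.

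Potassium channels let potassium leave the neuron, set its resting potential and end the action potential. Voltage-gated alpha subunits form the pore, silent subunits and beta subunits change its gating, inward rectifiers and 2-pore channels hold the resting potential, and calcium-activated and sodium-activated channels couple firing to the ions that enter. In the hippocampus, A-type channels of the Kcnd family limit the spread of action potentials into the dendrites of pyramidal cells, and astrocytes use inward rectifiers to take up potassium released by neurons.

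The values were log2 expression values from qFARMS, a factor analysis method that leaves nearly no variation in a probe set whose single probes do not vary together. A probe set was called variable when its standard deviation (SD) over the 10 rats was above 0.01. This held for 20 of the 126 potassium channel probe sets (15.9%), from 15 genes, against 2904 of all 31042 probe sets (9.36%), from 1789 genes. The variable potassium channel probe sets had a median SD of 0.247, against 0.219 over all variable probe sets. The remaining 106 probe sets had a median SD of 0.00021, so their values give a level but hardly any difference between rats. Of the 15 genes, 10 also had a probe set that did not vary, and in 5 (Kcnd2, Kcnh1, Kcnh6, Kcnj14 and Kcnma1) every probe set varied. Those that did not vary were 5 of 6 of Kcnc2, 3 of 4 of Kcnj6, and 2 of 3 each of Kcnd3, Kcnq5 and Kcnt1. They were also 2 of 4 of Kcnab2, 1 of 3 of Kcne2, and 1 of 2 each of Kcnj16, Kcnj4 and Kcnk2. Where values of such a gene are given without a probe set, they are those of its variable probe set. The threshold fell into a gap. The probe sets just above it were Kcnd2 1379863_at, with an SD of 0.0121, and Kcnh1, with 0.0738, and those just below it were Kcnv1, with 0.0044, and Kcnq3, with 0.00109. Mean levels of the 126 probe sets ran from 5.49 to 10.47 with a median of 6.81, and those of all probe sets from 5.18 to 13.96 with a median of 7.01. Levels of different probe sets depend on their probes as well, and were not ranked against each other.

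**Figure D1:**
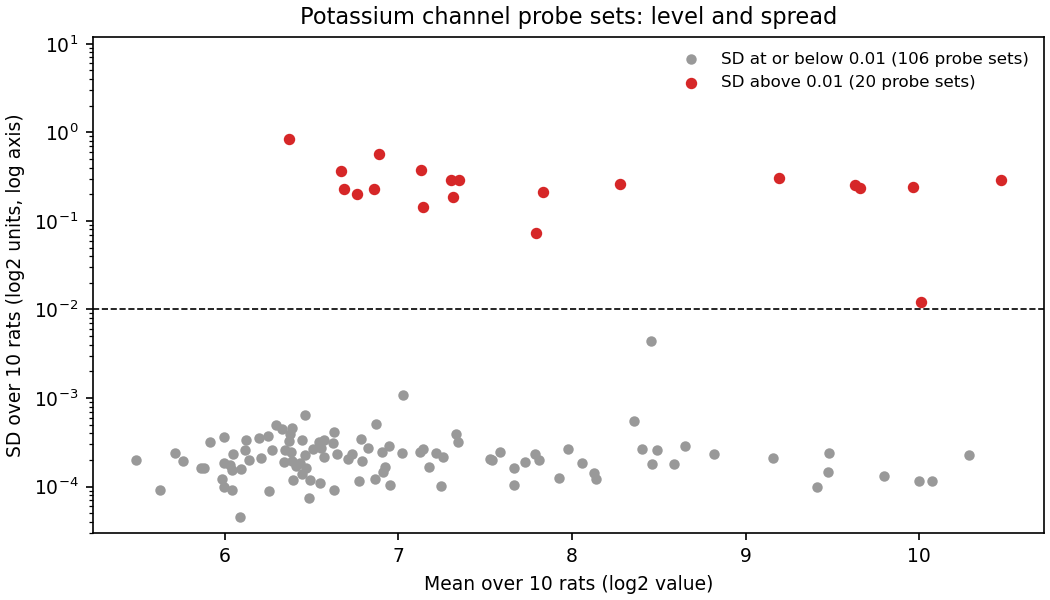
Mean log2 value over 10 rats (x axis) against SD over the same rats (y axis, log scale) of the 126 potassium channel probe sets, with the threshold of 0.01 as a dashed line. The 20 variable probe sets (red) lie above the line at means of 6.37 to 10.47, and the others (grey) reach an SD of at most 0.0044.

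The array values of the whole series set limits that touch these genes. Rat C1 had the highest or lowest value of the 10 rats in 2194 of the 2904 variable probe sets (75.6%). Transthyretin (Ttr), which the epithelium of the choroid plexus makes in large amounts, stood at 2 separate levels, at 7.40 to 10.35 in C3, C4, P1, P2 and P4 and at 12.99 to 13.60 in the other 5 rats. Of 15 choroid plexus markers 13 were measured, 12 varied and all of these 12 were called higher in the C-group by the rank products test described below, and the mean of the 12 ranged from 6.71 to 9.26 in the C-group and from 6.52 to 8.80 in the P-group. Of 9 pineal and photoreceptor markers 8 were measured and 7 varied, and their mean was 8.66 in P2 and 6.06 to 6.16 in the other rats. Hippocampal neuron markers were measured for 7 of 8 genes, of which 6 varied, in 13 of 18 probe sets. The most variable probe sets of these 6 had a mean of 9.18 to 9.61 in the C-group, lowest in C1, and 9.28 to 9.48 in the P-group. Rank products called 3 probe sets of Zbtb20 higher and 1 of Neurod6 lower. The mean of the brightest probe sets of all 7 genes, which include nearly constant ones, lay between 9.80 and 10.24 in the C-group and between 10.04 and 10.19 in the P-group. The deposited values carry no detection call, so no marker can be called absent.

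The promoters of 3 members are shown as examples and do not cover all patterns among the variable probe sets. No Kcne2 promoter was among those available, so its order of rats, described below, is not represented. Kcnd3 was highest in C1 and C2, Kcnj6 was lowest in these rats, and the probe sets of Kcnma1 were called in both directions. The 250 bases before the annotated start are from RefSeq (GRCr8), given 5′ to 3′ on the strand of the gene, and capitals mark the GC box GGGCGG or its reverse complement. The windows are chr2:195626066-195626315 on the plus strand for Kcnd3, chr11:47778349-47778598 on the minus strand for Kcnj6 and chr15:351675-351924 on the plus strand for Kcnma1.
Kcnd3: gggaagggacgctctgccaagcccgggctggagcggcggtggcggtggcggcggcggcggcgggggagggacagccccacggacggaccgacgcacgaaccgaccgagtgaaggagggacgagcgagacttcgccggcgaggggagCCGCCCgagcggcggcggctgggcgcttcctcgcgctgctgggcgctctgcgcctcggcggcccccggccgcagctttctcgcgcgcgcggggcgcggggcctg
Kcnj6: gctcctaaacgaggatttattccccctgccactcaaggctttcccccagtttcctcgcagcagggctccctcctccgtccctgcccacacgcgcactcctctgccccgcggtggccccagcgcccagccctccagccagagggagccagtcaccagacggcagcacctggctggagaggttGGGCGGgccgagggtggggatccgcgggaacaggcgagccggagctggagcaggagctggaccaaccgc
Kcnma1: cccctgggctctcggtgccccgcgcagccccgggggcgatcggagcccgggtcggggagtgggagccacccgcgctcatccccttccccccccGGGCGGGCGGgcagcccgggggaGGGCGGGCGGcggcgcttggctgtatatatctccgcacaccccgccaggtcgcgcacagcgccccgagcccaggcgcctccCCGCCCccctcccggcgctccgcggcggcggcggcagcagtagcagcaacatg
A GC box was found once in Kcnd3, once in Kcnj6 and 5 times in Kcnma1, where matches overlap. Over both strands, 32 of 58 promoters from the 52 matched potassium channel genes (55.2%) held one, against 10197 of 33469 promoters (30.5%). Among the 17 promoters of 14 matched variable genes, 7 held one. These promoters had a median GC content of 64.8%, against 51.2% over all promoters. The cAMP response element TGACGTCA was in 531 of all promoters (1.59%) and in 0 of the 58. A match of letters is a description of the window and not a binding site.

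Groups were compared by rank products, the test that the methods name, and by limma. Rank products ranks the differences between rats of the groups over all probe sets and does not weigh a difference against the spread between rats, whereas limma does. At a false discovery rate (FDR) under 0.05, rank products called 4 of the 20 variable potassium channel probe sets (20%) higher in the C-group and 1 (5%) lower. Over all variable probe sets the shares called were 21.5% and 4.37%, and over all probe sets 2.01% and 0.409%, so the members were called about as often as other variable probe sets. The called probe sets were both of Kcne2 that varied, 1 of 2 of Kcnd2 and 1 of 3 of Kcnma1 on the higher side, and another of Kcnma1 on the lower side. When only the 2904 variable probe sets were ranked, none of the 20 was called in either direction. No probe set of any gene passed limma at an adjusted p under 0.05 (0% of 31042), and the lowest adjusted p of a member was 0.927. Unadjusted limma p-values under 0.05 were found for 0 of the 20 variable and 4 of all 126 probe sets, against 915 of 31042. The C-group and the P-group overlapped in all 20, whereas 0.207% of all variable probe sets had groups that did not overlap.

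The differences, C-group mean minus P-group mean, ranged from -0.29 to 0.43 log2 units in the 20 probe sets, with a median of 0.03, and 11 were above 0 and 9 below. Over all variable probe sets the median was 0.07, with 1983 above 0 and 921 below. In 9 of the 20 the difference exceeded its standard error (SE). C1 was the highest rat in 9 and the lowest in 5 of the 20 (70% together, near the 75.6% of all variable probe sets). Of the 9 with C1 highest, 8 had a difference above 0, and all 5 with C1 lowest had one below 0. Without C1 the difference lay nearer to 0 in 15 of 20 and changed its sign in 5, and none of the 4 probe sets called higher was still called. Of these 4, Kcnd2 1387476_at kept nearly its whole difference without C1 (0.19 against 0.20), whereas the other 3 differed by 0.27, 0.12 and 0.08.

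**Figure D2:**
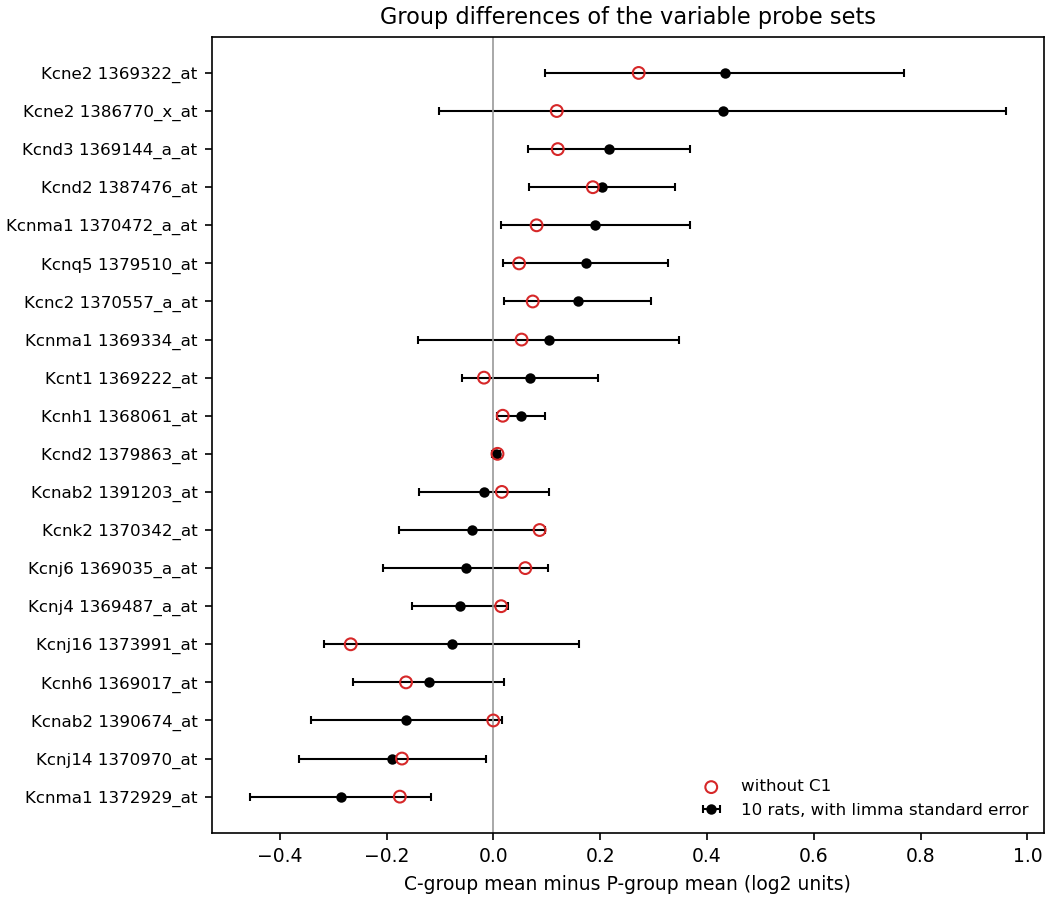
C-group mean minus P-group mean in log2 units (x axis) of the 20 variable probe sets with the limma standard error as bars (10 rats), and the same difference without rat C1 as open circles. The values run from -0.29 to 0.43, and 15 of 20 open circles lie nearer to 0 than the filled ones.

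Among the voltage-gated alpha subunits, 4 of 25 probe sets varied, from 3 of 13 genes. Kcnd2 encodes the main A-type subunit of hippocampal pyramidal cells. Its probe set 1387476_at was at 9.83, 9.86, 9.86, 9.90 and 9.35 in C1 to C5 and at 9.83, 9.63, 9.54, 9.55 and 9.23 in P1 to P5. The groups overlapped, with C5 and P5 as the lowest rats of their groups. The means were 9.76 ± 0.23 (SD, n = 5) and 9.56 ± 0.22 (SD, n = 5), and the difference of 0.20 (SE 0.14) was called higher by rank products (FDR 0.0168), but not by limma (adjusted p = 0.927). The call was lost without C1, C2, C3, C4 or P5, each left out in turn, at FDR values from 0.0545 to 0.0822. The difference itself stayed at 0.17 to 0.19 without C1, C2, C3 or C4, and was 0.31 without C5 and 0.12 without P5. The second probe set of Kcnd2, 1379863_at, lay between 9.99 and 10.03 in all rats, with a difference of 0.0045 (SE 0.0077) that was -0.0017 after median centring and -0.000598 after quantile normalization. The order of the rats was nevertheless alike in both probe sets, in 40 of 45 pairs of rats, so that the same order was found at a much smaller spread.

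Kcnd3, the other A-type subunit that varied, was at 8.77 and 8.72 in C1 and C2, at 8.08 to 8.20 in the other C-group rats and at 7.99 to 8.30 in the P-group. Thus C1 and C2 stood above all other rats, and the other 3 rats of the C-group lay within the range of the P-group. The difference of 0.22 (SE 0.15) was not called by either test (FDR 0.0573). It was 0.12 without C1 and 0.13 without C2, and it was called higher without C3, P1 or P2, at 0.29, 0.24 and 0.25 (FDR 0.0396, 0.0351 and 0.0385). Kcnc2, which encodes a fast delayed rectifier of fast-spiking interneurons, had the same rat at the top, with 7.28 in C1 against 6.54 to 7.08 in the other rats. Its difference was 0.16 (SE 0.14, FDR 0.113), 0.07 without C1 and 0.23 without P1, where it was called higher (FDR 0.0372). Kcnd3 and Kcnc2 had the rats in the same order in 38 of 45 pairs. Probe sets of the Shaker-type genes Kcna1 and Kcna2 did not vary.

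None of the 10 probe sets of the 7 silent modifier subunit genes varied, among them Kcnv1 just below the threshold. In the EAG and ERG family 2 of 8 genes varied. Kcnh6, an ERG-type channel, was at 7.27 in P2 and at 6.54 to 6.80 in the other 9 rats. P2 alone was high, and the difference of -0.12 (SE 0.14) became 0.01 without it. Without C1 it was -0.16 and called lower (FDR 0.0494). Kcnh1, the EAG channel, ranged only from 7.69 to 7.96, with the highest value in C1 and a difference of 0.05 (SE 0.04). In the KCNQ family, whose channels carry the M-current that restrains repeated firing, 1 of 6 probe sets varied. It belonged to Kcnq5 and was at 10.22 in C1, 9.83 in C2 and 9.34 to 9.73 in the other rats. Its difference of 0.17 (SE 0.16) was not called (FDR 0.0524). It was 0.05 without C1, and it was called higher without P1 or P5, at 0.22 and 0.21 (FDR 0.0244 and 0.0401).

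Of the 24 probe sets of accessory subunits 4 varied, 2 of Kcne2 and 2 of Kcnab2. The Kcne2 probe sets had the largest SDs of the 20 variable members, at 0.846 and 0.564. Kcne2 encodes a small single-pass subunit that joins several potassium channels, and it is well known from the epithelium of the choroid plexus and the stomach. Probe set 1369322_at was at 7.75, 7.24, 6.52, 6.49 and 7.53 in C1 to C5 and at 6.32, 6.75, 7.41, 6.07 and 6.81 in P1 to P5. Probe set 1386770_x_at, whose suffix marks probes that may also match other transcripts, was at 7.83, 6.85, 5.61, 5.44 and 7.18 in C1 to C5 and at 5.43, 6.22, 7.17, 5.71 and 6.24 in P1 to P5. Both were high in C1, C2, C5 and P3 and low in C3, C4, P1 and P4, so that each diet held high and low rats. The third probe set, 1394343_s_at, did not vary and stayed at 5.49.

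The means of 1369322_at were 7.10 ± 0.58 and 6.67 ± 0.51 (SD, n = 5 each) in the C-group and P-group, with a difference of 0.43 (SE 0.34). Those of 1386770_x_at were 6.58 ± 1.03 and 6.15 ± 0.67 (SD, n = 5 each), with a difference of 0.43 (SE 0.53). Rank products called both higher (FDR 0.00509 and 0.00701) and limma neither (adjusted p = 0.927 and 0.929), and the difference was smaller than the SD within either group. Without C1 both calls were lost (FDR 0.0577 and 0.0977), at differences of 0.27 and 0.12. The difference of 1369322_at was 0.28 without P4. That of 1386770_x_at ranged up to 0.71 without C4, and was 0.67 without C3, 0.68 without P3, 0.28 without C5 and 0.25 without P1. Both probe sets thus differed between rats of one diet by more than between the diets.

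Both variable probe sets of Kcne2 followed Ttr, taken as the same order of rats in at least 36 of the 45 pairs. The counts were 40 for 1369322_at and 41 for 1386770_x_at, and 42 for the probe sets against each other. All 25 pairs that join a rat of high Ttr with one of low Ttr were in the same order, as were 15 and 16 of the 20 pairs within a level. The gap between the levels was narrow, since P5 with high Ttr had 6.81 and P2 with low Ttr 6.75 in 1369322_at, and 6.24 and 6.22 in 1386770_x_at. After quantile normalization of the arrays, the counts were 35 and 36. These 2 probe sets were 10% of the 20 variable members, against 6.79% of the other variable probe sets that followed Ttr, so the share is near the background. The choroid plexus marker Folr1 had the same high rats, at 8.42 to 9.45 in C1, C2, C5 and P3, 7.67 in P5 and 6.53 to 6.76 in the remaining 5. The part of choroid plexus RNA in the difference of Kcne2 was not tested. The 10 points share their arrays and their normalization, and the counts are a description. Of named genes outside the family, Lgals3bp was most like Kcne2 1386770_x_at, with 45 of 45 pairs in the same order, and 78 such probe sets had at least 40.

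**Figure D3:**
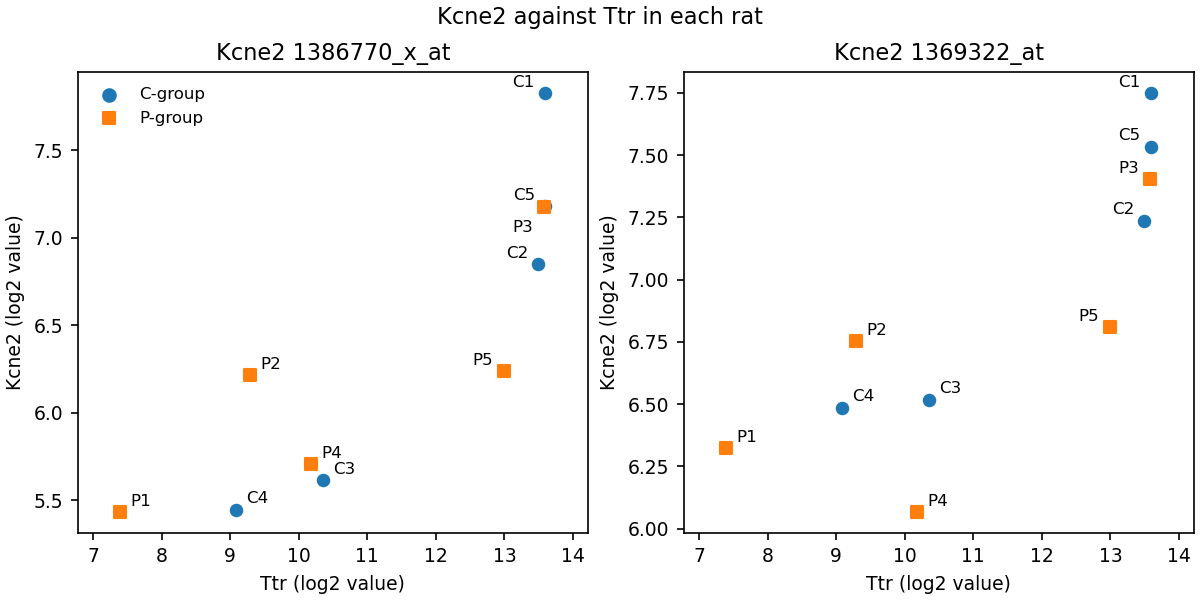
Log2 value of Ttr (x axis) against that of Kcne2 (y axis) in each of the 10 rats, for both variable Kcne2 probe sets, with C-group rats as circles and P-group rats as squares. The 5 rats with Ttr at 12.99 or more lie above the other 5 in each panel, with P5 and P2 closest to each other, and both groups occur at each level.

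Among the other 18 variable probe sets, 17 had 13 to 31 of 45 pairs in the order of Ttr, and Kcnd2 1379863_at had 9, which met the limit for the opposite order (0.276% of the other variable probe sets). Of the 25 pairs between the levels 1 was in the order of Ttr, and of the 20 within them 8, over a whole range of only 9.99 to 10.03. Kcnj13, an inward rectifier that is also known from choroid plexus epithelium, was at 6.54 with an SD of 0.00032 and gives no information on differences between rats.

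Kcnab2 encodes a beta subunit that binds Shaker-type channels and helps to bring them to the axon. Its probe set 1390674_at was at 9.74 in C1 and at 10.40 to 10.74 in the other 9 rats. The difference of -0.16 (SE 0.18) was not called (FDR 0.191), and without C1 it was within 0.01 of 0. The second probe set, 1391203_at, ranged from 6.97 in P2 to 7.55 in C3, with a difference of -0.02 (SE 0.12) that was above 0 in 6 of the 10 sets with 1 rat left out. The probe sets of Kcnab2 had the rats in the same order in only 22 of 45 pairs. No probe set of the 4 Kcnip genes, whose products bind Kcnd channels, varied.

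Of the inward rectifiers, 4 of 26 probe sets varied, from 4 of 15 genes, and none was called. Kcnj16 forms channels with Kcnj10 in astrocytes and in epithelia. Its other probe set, 1370076_at, did not vary. The variable one, 1373991_at, was at 7.39, 6.75, 6.48, 5.97 and 6.56 in C1 to C5 and at 6.68, 6.54, 6.84, 6.50 and 6.98 in P1 to P5. C1 was the highest and C4 the lowest of all rats, both of the C-group, whose SD was 0.51 against 0.20 in the P-group. With 1 rat left out, the difference of -0.08 (SE 0.24) changed its sign only without C4, where it was 0.09. It was -0.01 without P5. Without C1 and without C2 it was -0.27 and -0.11, and rank products called it lower (FDR 0.00879 and 0.0434). The order followed Ttr in 24 of 25 pairs between the levels but in 7 of 20 within them. Kcnj10 itself did not vary, at 6.39. Of the 5 astrocyte markers measured, 4 varied, and Aqp4, Gja1 and Slc1a3 were called higher by rank products, each by 1 probe set. Brighter probe sets of these genes did not vary. Gfap, the other variable marker, went the other way. Its difference was -0.15 (SE 0.16) and not called, with C1 lowest at 10.71. The mean of the 4 was 9.73 to 10.13 in the C-group, highest in C1. It was 9.53 to 9.75 in the P-group apart from P1, which lay between C1 and C2. The part of astrocytes in the values of Kcnj16 was not tested.

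Kcnj14, an inward rectifier that is strongly rectifying, was at 8.11 in P2 and at 7.10 to 7.48 in the other 9 rats. The difference of -0.19 (SE 0.18) was not called (FDR 0.169) and was -0.02 without P2. P2 was also the rat in which the photoreceptor gene Pde6g was at 10.87, against 6.78 to 7.15 in the others, and in which Kcnh6 was highest. The part of pineal tissue in these values was not tested. P2 was the highest or lowest rat in 4 of the 20 probe sets (20%), against 20.6% of all variable probe sets. Kcnj6, a channel opened by G proteins downstream of inhibitory receptors, was lowest in C1 and C2, at 9.49 and 9.70, and at 9.82 to 10.29 in the other rats. Its difference of -0.05 (SE 0.15) was 0.06 without C1 and 0.0057 without C2. Kcnj4, a strong inward rectifier of forebrain neurons, was at 6.80 in C1 and at 7.02 to 7.27 in the others, with a difference of -0.06 (SE 0.09) that was 0.01 without C1.

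Of the 2-pore channels, which carry the leak current at rest, 1 of 16 probe sets varied. Kcnk2, which responds to stretch, lipids and temperature, was at 7.31 in C1 and at 7.76 to 8.02 in the other rats, with a difference of -0.04 (SE 0.14) that became 0.09 without C1. Kcnk2 and Kcnj6 had the rats in the same order in 38 of 45 pairs, and Kcnj6 and Kcnd3 in 7, which is nearly the reverse order. C1 and C2 lay at opposite ends in Kcnj6 and Kcnd3. C1 was apart from the others in a probe set of a bright neuronal gene outside the family as well. The Ppp3ca probe set with the largest SD was at 10.22 in C1 and at 12.78 to 13.07 in the other 9 rats. What sets C1 apart was not tested.

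**Figure D4:**
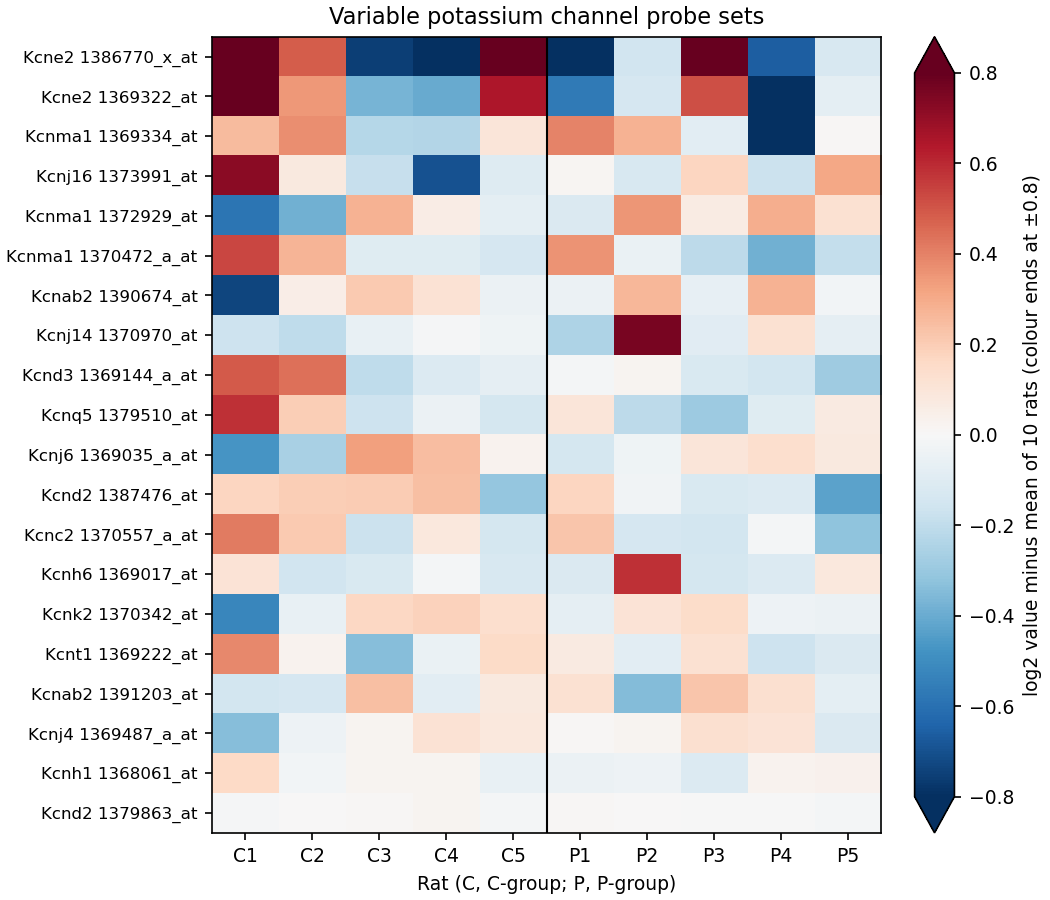
Log2 value minus the mean of the 10 rats (colour, ending at ±0.8) for the 20 variable probe sets (rows) in each rat (columns, C-group left of the line). C1 is the highest or lowest rat in 14 of 20 rows, and P2 stands out in Kcnj14 and Kcnh6.

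Among the calcium-activated channels, Kcnma1 was the only one of 6 genes that varied. It encodes the pore of the large conductance channel, which is opened by calcium and depolarization together and shortens the action potential. Probe set 1372929_at was at 8.60, 8.80, 9.46, 9.25 and 9.11 in C1 to C5 and at 9.08, 9.54, 9.25, 9.48 and 9.31 in P1 to P5. Its means were 9.05 ± 0.34 and 9.33 ± 0.19 (SD, n = 5 each), and the difference of -0.29 (SE 0.17) was called lower by rank products (FDR 0.0121) and not by limma (adjusted p = 0.927). C1 and C2 were the lowest of all rats, and the other rats of the C-group lay within the P-group. The call was lost without C2, P2, P4 or P5, at FDR values from 0.0523 to 0.0904, and the difference was -0.18 without C1.

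Probe set 1370472_a_at was at 7.84, 7.58, 7.21, 7.20 and 7.17 in C1 to C5 and at 7.66, 7.25, 7.09, 6.92 and 7.11 in P1 to P5. C1 was highest, followed by P1 and C2. Its means were 7.40 ± 0.30 and 7.21 ± 0.28 (SD, n = 5 each), and the difference of 0.19 (SE 0.18) was called higher (FDR 0.0399). This call was kept without P1 or P2 but lost without any of the other 8 rats, at FDR values from 0.0558 to 0.174. The difference was 0.08 without C1, 0.12 without P4 and 0.30 without P1, and it was larger than with all rats without C3, C4 or C5 (0.24, 0.24 and 0.25), although the call was lost there. The third probe set, 1369334_at, was at 7.39, 7.50, 6.90, 6.90 and 7.23 in C1 to C5 and at 7.53, 7.41, 7.05, 6.27 and 7.14 in P1 to P5, and its difference of 0.10 (SE 0.24) was not called (FDR 0.147). Without P4 the difference was -0.10, without C2 it was 0.02, and without P1 it was 0.22 and called higher (FDR 0.0354). It had the order of 1370472_a_at in 36 of 45 pairs, whereas 1372929_at had the order of these in 14 and 13 pairs. With all rats, 1372929_at differed in sign from the other probe sets of this gene, of which 1369334_at kept its sign only with P4 included. Transcripts that the probe sets recognise could not be placed here, and splicing was not tested.

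**Figure D5:**
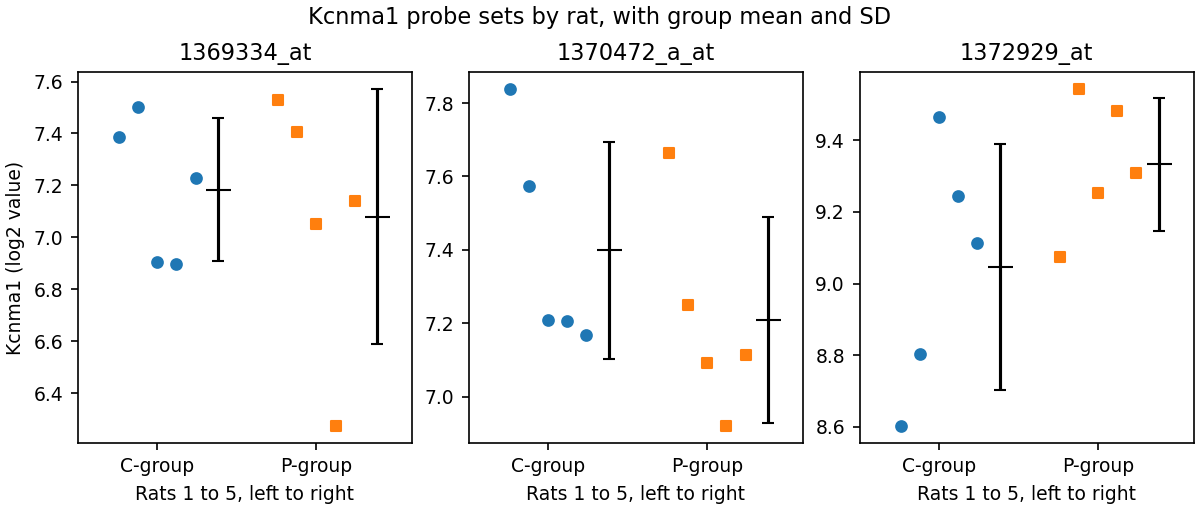
Log2 value of the 3 Kcnma1 probe sets in each rat (points, rats 1 to 5 from left to right) with the group mean and SD (n = 5). C1 and C2 are the lowest of all rats in 1372929_at and among the highest 3 in 1370472_a_at.

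None of the 3 genes of small and intermediate conductance channels varied. Kcnt1, the sodium-activated channel of this set, had 1 variable probe set of 3, at 6.42 to 7.14 with C1 highest and C3 lowest, and a difference of 0.07 (SE 0.13) that was -0.02 without C1.

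Genes that work with potassium channels but carry other symbols were read from fixed lists, beside the 9.36% of all probe sets that varied. Of 20 partner genes, such as auxiliary subunits and anchoring proteins, 17 were measured by 28 probe sets. Of these, 4 varied, in Adam22, Cntnap2, Dlg1 and Lgi1, and none was called. Adam22 and Dlg1 anchor or accompany channels at axons and synapses. The differences of their variable probe sets were 0.12 (SE 0.09) and 0.10 (SE 0.08), with FDR values of 0.085 and 0.052. Those of Cntnap2 and Lgi1 were 0.016 (SE 0.087) and -0.0057 (SE 0.027). Other probe sets of Adam22, Dlg1 and Cntnap2 did not vary. Of 12 potassium pump and cotransporter genes 8 were measured by 11 probe sets, and 1 of them, for Atp1b1, the beta subunit of the sodium-potassium pump, varied. In this probe set C1 alone stood low, while the other 9 rats lay at 12.40 to 12.56. The group means were 12.18 and 12.51 in the C-group and P-group. The difference of -0.33 (SE 0.29) was called lower by rank products (FDR 0.031) with a single rat outside a narrow range. The other probe set of Atp1b1 was brighter and did not vary. It was at 12.66 in C1, with a mean of 12.66 in each group, so the low value of C1 was not seen there.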

How the data were processed

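Hippocampal RNA of 10 rats (5 in each group, separate rats by the study's methods) was measured on Affymetrix rat genome arrays from 100 ng of total RNA. Normalization and summarization were done with qFARMS by the authors, who deposited log2 values that were used here without further normalization. That the values are log2 was read from their range and the method. The 57 control probe sets were left out, and 0 columns belonged to other samples. Arrays give no read depth, and 5 rats per group limit the precision.

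Gene symbols came from the platform annotation, and all 126 member probe sets had the same symbol in the RefSeq table (GRCr8). Rank products used the 25 differences between groups and 100 permutations within arrays, with an FDR threshold of 0.05, and was run in Python 3.11.15 (numpy 2.4.6, pandas 2.3.3). Pairing and the number of permutations are not given in the sources used here. Standard errors and adjusted p-values (Benjamini-Hochberg over all 31042 probe sets) came from lmFit and eBayes of limma 3.58.1, run in R 4.3.3. Both were tested on simulated data. The order of each probe set over the 45 pairs of rats was compared with that of Ttr.

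The members, lists and thresholds were chosen with earlier results of these data known. Named with values were the called probe sets, those following or opposing Ttr, the 5 largest differences in each direction, the most variable probe set of each subfamily and those next to the SD threshold, and the other variable members were named too. Alternatives changed the pairing, normalization, filters, thresholds, variance model, reference gene, random draw and rats used. Of the marker lists, those for choroid plexus, pineal and photoreceptor cells, hippocampal neurons and astrocytes are described.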

Additional observations from a re-analysis of the deposited data

Results flagged for a closer look

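Of 40 groups of 5 rats (20 variable probe sets in each diet), 2 held a rat whose gap to its nearest neighbour was a large part of the group's range, with a critical value of 0.71. For independent groups of normal values, chance would give about 1 in 20. The 40 groups come from the same 10 rats and are not independent, so this rate need not hold here. In Kcnab2 1390674_at, C1 was at 9.74 and the other C-group rats at 10.42 to 10.67, a gap of 0.730 of the range. In Kcnd2 1387476_at, C5 was at 9.35 and the other C-group rats at 9.83 to 9.90, a gap of 0.870 of the range. The causes were not tested.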

How the results depend on the processing

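Against 4 potassium channel probe sets called higher and 1 called lower by rank products, the counts were 8 and 3 with the replicate block, 0 and 0 when only variable probe sets were ranked, 0 and 1 when only probe sets above the median mean were ranked, 2 and 0 at an FDR threshold of 0.01, and 0 and 0 with limma in place of rank products. Both called Kcne2 probe sets had means (6.37 and 6.89) below the median mean of 7.01. The filter for probe sets above it left them out, so they could not be called there. Leaving out 1 rat at a time gave 0 to 8 called higher and 0 to 3 called lower, and without C1 0 and 3. Quantile normalization and another random draw left both counts as they were. Median centring shifts a whole array and leaves the ranks of the differences unchanged, so it could not alter the counts. The number of probe sets following Ttr was 2, and 1 after quantile normalization. Over all probe sets, 625 called higher and 127 lower became 916 and 338 with the replicate block, 7 and 0 among variable probe sets, 156 and 30 above the median mean, and 77 to 789 and 10 to 228 with 1 rat left out, the fewest higher without C1 and the fewest lower without P4. Ranking fewer probe sets changes the ranks themselves, and the cause of the other changes was not tested.

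Whether the replicate numbers pair the samples is not stated in the sources used here. Deviations of same-numbered rats correlated at 0.28, -0.01, -0.39, 0.48 and 0.45. The best partner had the same number for C1 and C4, but not for C2, C3 and C5. These values cannot settle the pairing, so the replicate block is given only as an alternative. With the paired fit (replicate block), the 4 called higher were all among the 8, with Kcnd3, Kcnq5, Kcnc2 and Kcnt1 added (FDR 0.0199, 0.0203, 0.0467 and 0.041), and Kcnj16 and Kcnab2 1390674_at were added to those called lower (FDR 0.0131 and 0.0177), and limma passed 0 probe sets, with a lowest adjusted p of 0.818. In all limma settings 0 members passed. The variable members numbered 20, and 19 to 24 with other SD thresholds or normalization. Of 260 values of single probe sets under alternatives, 225 kept their side of the threshold, 16 newly passed it, 19 no longer passed it, and 0 changed direction while called. Those under median centring were bound to keep their side. Signal over background was not analysed here, and the constancy of 106 probe sets limits what can be said on them.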
